A study of Mus musculus with 12 samples.

Results

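The circadian clock genes examined here were the activators Arntl, Clock and Npas2, the repressors Per1, Per2, Per3 and Cry1, the E-box competitor Bhlhe40, and the D-box factors Dbp and Nfil3. All probesets that the platform annotation gives to exactly 1 of these genes were taken, which gave 23 probesets of 45037 tested and 10 genes of 18193. Liver RNA was hybridised to 12 Affymetrix mouse arrays, 1 animal each. There were 4 groups of 3 animals: Atf6a-/- animals given 2 mg/kg of the glycosylation inhibitor tunicamycin (TM), Atf6a-/- animals given vehicle, wild-type animals given TM and wild-type animals given vehicle. TM or vehicle (150 mM dextrose) was given by intraperitoneal injection 8 h before the liver was taken. The design asks how an acute stress of the endoplasmic reticulum (ER) alters liver gene expression, and how far loss of ATF6α, a membrane-bound transcription factor of the ER stress response, changes that. The labels and methods set limits on the model. The deletion is not restricted to the liver, ages and genders varied, and the RNA came from liver homogenate. All animals were kept on a 12 h light and dark cycle and fasted before they were killed in daytime hours, and neither source gives the hour for each animal.

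The mammalian clock is a transcriptional feedback loop. BMAL1 (the product of Arntl) pairs with CLOCK or NPAS2, binds E-box sequences and activates the Per and Cry genes, whose products return to the nucleus and repress that pair. Another loop acts through ROR and REV-ERB nuclear receptors, which compete for response elements at Arntl, and another through D-boxes, which DBP, TEF and HLF activate and NFIL3 represses. In liver the clock times much of metabolism, and its genes swing widely over the day.

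Between TM and vehicle animals the clock genes differed in both directions. The hour at which each animal was killed is not given, and its part in these differences was not tested. In Atf6a-/- animals, 4 of the 10 genes rose (Arntl, Clock, Nfil3 and Per1) and 3 fell (Per3, Dbp and Bhlhe40), where 13.1% of all genes rose and 8.21% fell. In wild-type animals, 4 rose (Arntl, Clock, Nfil3 and Per1) and 2 fell (Per3 and Dbp), where 8.92% of all genes rose and 6.9% fell. The clock genes were chosen with earlier results of these data known, so these shares are not independent support. A gene was called when its brightest probeset had an adjusted p under 0.05 (limma, Benjamini-Hochberg over all 45037 probesets) and changed more than 1.5-fold. The median log2 difference of the 10 genes was 0.37 in Atf6a-/- animals and 0.43 in wild-type animals, against -0.10 and -0.06 over all genes. The groups did not overlap for 4 genes that were higher and 4 that were lower with TM in Atf6a-/- animals, where 20.8% and 29.6% of all genes did so. In wild-type animals the groups did not overlap for 4 genes that were higher and 2 that were lower with TM, against 16.8% and 22.5% of all genes.

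**Figure D1:**
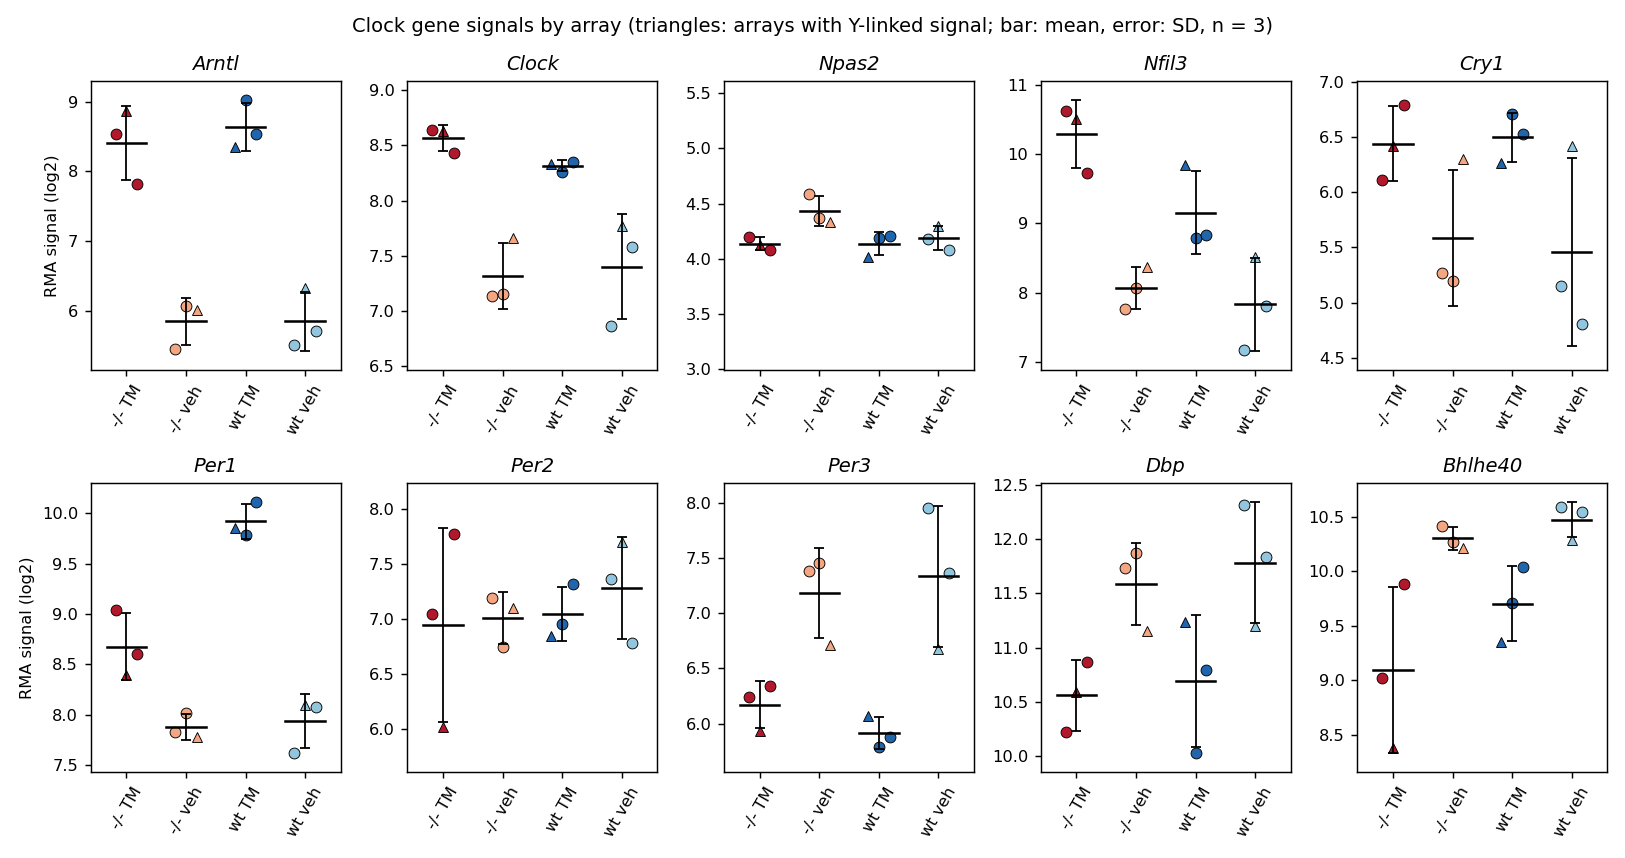
Signal of the brightest probeset of each of the 10 clock genes (log2, y axis, a separate scale for each gene) on each of the 12 arrays, by group: Atf6a-/- TM, Atf6a-/- vehicle, wild-type TM and wild-type vehicle. Bars are means, error bars are SD (n = 3) and triangles are the 4 arrays with Y-linked signal. Arntl is between 7.82 and 9.02 on every TM array and between 5.45 and 6.32 on every vehicle array, and Per1 is at or below 9.04 on the Atf6a-/- TM arrays and at or above 9.79 on the wild-type TM arrays.

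A few facts of the whole set bear on these values. The Atf6 probeset was lower in Atf6a-/- animals under both treatments, without overlap of the groups, but neither difference passed the test (-0.82 under TM and -1.71 under vehicle). Both passed without the 4 arrays with Y-linked signal named below (-0.74, adjusted p = 0.0173, under TM and -1.73, adjusted p = 0.00304, under vehicle), and which part of the Atf6 transcript the probeset reads was not analysed here. The Atf6 probeset also rose with TM in both genotypes. Its mean was 7.33 with vehicle and 10.15 with TM in Atf6a-/- animals, and 9.04 and 10.97 in wild-type animals. The ER stress genes Hspa5, Ddit3, Atf4, Dnajb9 and Trib3 were higher on every TM array than on any vehicle array. Of these, only Ddit3 was called between genotypes under TM, where 1.53% of all genes were lower and 2.89% higher. It was lower in Atf6a-/- than in wild-type animals (-1.0, adjusted p = 0.000199). Trib3 read higher there (means 13.58 and 12.79) and was not called. Array medians ran between 4.98 and 5.11 on the log2 scale. They were lower on every TM array (4.98 to 5.03) than on any vehicle array (5.04 to 5.11). 1 array in each group carried Y-linked signal and little Xist: Atf6a-/- TM replicate 2, Atf6a-/- vehicle replicate 3, wild-type TM replicate 1 and wild-type vehicle replicate 2. Among vehicle animals these arrays were the highest of their 3 in both genotypes for Clock, Cry1 and Nfil3, and the lowest for Per3, Dbp and Bhlhe40. That is 30% of the clock genes each way, against 18.7% and 20.7% of all genes. Among TM animals these arrays were the highest in both genotypes for 0 clock genes and the lowest for 2 (Per2 and Bhlhe40, 20%), against 15.5% and 12.6% of all genes. Values without these 4 arrays are given where they change a call. The defining hepatocyte markers were bright throughout, with a summed level of 6 genes between 16.87 and 16.94 in Atf6a-/- TM animals, 16.90 to 16.97 in Atf6a-/- vehicle animals, 16.87 to 16.91 in wild-type TM animals and 16.92 to 16.98 in wild-type vehicle animals (log2). Markers of other cells were lower with TM in places: the summed level of 6 lymphocyte markers was 8.21 to 8.63 in Atf6a-/- TM animals and 8.86 to 9.28 in Atf6a-/- vehicle animals, with 2 of the 6 falling, and 1 of the 6 was below the array median on every array. The same sum was 8.53 to 8.71 in wild-type TM animals and 8.81 to 9.59 in wild-type vehicle animals, with none of the 6 falling. 3 of 6 Kupffer cell markers fell in Atf6a-/- animals, where their sum was 12.32 to 12.90 with TM and 12.83 to 13.48 with vehicle. None of the 6 fell in wild-type animals (12.87 to 13.07 with TM and 12.75 to 13.62 with vehicle). Of the other markers, in Atf6a-/- animals 1 of 6 hepatocyte, 1 of 6 stellate cell and 1 of 4 cholangiocyte genes fell, and 1 of 6 endothelial genes rose. In wild-type animals 2 of 6 stellate cell genes and 1 of 6 endothelial genes fell. No neutrophil gene (of 4) or erythroid gene (of 3) passed in either genotype. The part of these cells in the clock gene results was not tested, and in homogenate fewer cells of a type and less RNA per cell cannot be told apart.

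Sequence around the start sites was searched for elements of the loops. RefSeq promoter windows of 300 bases (250 before and 50 after the annotated start, GRCm38.p6) were found for 8 of the 10 genes, 12 windows in all, and both strands were searched for the E-box CACGTG, its variant CACGTT, the D-box TTATGTAA, its variant TTACGTAA, the ROR response element, the cAMP response element TGACGTCA and the ER stress element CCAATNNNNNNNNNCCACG. The 4 windows below are printed because they hold matches to such elements, one for each kind of loop and Cry1 for its close pair. Matched letters are in capitals. Where a gene had several windows, the one with the most matches was taken. They lie at chr7:113207261-113207560 (+ strand) for Arntl, chr4:151044616-151044915 (- strand) for Per3, chr11:69098699-69098998 (+ strand) for Per1 and chr10:85185005-85185304 (- strand) for Cry1.
Arntl: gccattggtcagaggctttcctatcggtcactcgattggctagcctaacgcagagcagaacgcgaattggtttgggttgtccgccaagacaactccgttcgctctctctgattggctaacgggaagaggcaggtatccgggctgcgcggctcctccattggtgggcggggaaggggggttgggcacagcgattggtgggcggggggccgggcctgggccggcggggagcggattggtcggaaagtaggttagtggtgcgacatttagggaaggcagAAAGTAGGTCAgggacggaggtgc
Per3: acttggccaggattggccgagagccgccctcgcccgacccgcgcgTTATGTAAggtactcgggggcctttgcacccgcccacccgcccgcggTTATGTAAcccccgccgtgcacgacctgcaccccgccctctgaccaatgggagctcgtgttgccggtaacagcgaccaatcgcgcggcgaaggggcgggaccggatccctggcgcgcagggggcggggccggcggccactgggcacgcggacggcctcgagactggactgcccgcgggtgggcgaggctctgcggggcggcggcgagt
Per1: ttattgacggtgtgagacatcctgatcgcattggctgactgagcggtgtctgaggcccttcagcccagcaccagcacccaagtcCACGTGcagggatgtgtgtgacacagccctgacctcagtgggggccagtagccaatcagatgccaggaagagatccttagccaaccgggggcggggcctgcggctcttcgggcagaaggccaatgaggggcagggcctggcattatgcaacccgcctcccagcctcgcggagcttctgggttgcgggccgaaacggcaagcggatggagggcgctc
Cry1: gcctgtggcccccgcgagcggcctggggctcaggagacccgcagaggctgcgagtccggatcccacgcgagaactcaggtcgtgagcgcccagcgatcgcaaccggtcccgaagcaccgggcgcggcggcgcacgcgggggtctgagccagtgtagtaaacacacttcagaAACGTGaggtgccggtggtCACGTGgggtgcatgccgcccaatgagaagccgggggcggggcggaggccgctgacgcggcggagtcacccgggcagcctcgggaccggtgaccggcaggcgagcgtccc
The Arntl window held the ROR response element AAAGTAGGTCA, 27 bases after the start, a motif present in 0.384% of 32851 promoters of this length. Per3 held the D-box at 205 and at 158 bases before its start (0.938% of promoters have 1 or more). Per1 held the E-box 166 bases before its start (7.15% of promoters). Cry1 held the E-box 60 bases before its start and, 79 bases before it, the variant on the opposite strand, which reads AACGTG as printed (4.68% of promoters). The cAMP response element (1.79% of promoters), the D-box variant (0.119%) and the ER stress element (0.119%) had no match in the 12 windows, which says only that these letters are not there. The E-box matched in 2 of the 12 windows, and the E-box variant, the D-box and the ROR response element in 1 each. Clock, Npas2, Dbp and Nfil3 had no match, and Per2 and Bhlhe40 had no window. Exact letters within 300 bases cannot show all the elements that a gene carries.

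Of the activators, Arntl had the largest TM difference of the 10 genes. Its signal was 8.53, 8.87 and 7.82 in Atf6a-/- TM animals, against 5.45, 6.07 and 6.0 in Atf6a-/- vehicle animals. It was 8.35, 9.02 and 8.53 in wild-type TM animals, against 5.51, 6.32 and 5.70 in wild-type vehicle animals. Every TM animal was more than 1 log2 unit above every vehicle animal, in both genotypes. Arntl rose by 2.56 on the log2 scale (SE 0.28, 5.92-fold, adjusted p = 3.21e-05) in Atf6a-/- animals and by 2.79 (SE 0.28, 6.91-fold, adjusted p = 2.55e-05) in wild-type animals. The Atf6a-/- and wild-type responses differed by -0.23 (95% interval -1.10 to 0.65, adjusted p = 0.903). The other Arntl probeset lay between 4.20 and 4.75, below the median of its array on all 12 arrays, and did not move with it (-0.25 in Atf6a-/- animals, adjusted p = 0.218; -0.09 in wild-type animals, adjusted p = 0.744). The Arntl result thus rests on 1 probeset, of the _a_at type that matches several transcripts of the gene.

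Clock, whose product is the usual partner of BMAL1, rose by less. Its brightest probeset read 8.64, 8.63 and 8.44 in Atf6a-/- TM animals, against 7.13, 7.15 and 7.66 in Atf6a-/- vehicle animals, and 8.34, 8.26 and 8.35 in wild-type TM animals, against 6.86, 7.76 and 7.58 in wild-type vehicle animals. TM and vehicle animals did not overlap in either genotype, and the Atf6a-/- TM animals were all slightly above the wild-type TM animals. Clock rose by 1.26 (SE 0.20, 2.39-fold, adjusted p = 0.000559) in Atf6a-/- animals and by 0.92 (SE 0.20, 1.89-fold, adjusted p = 0.00691) in wild-type animals, and the responses differed by 0.34 (95% interval -0.29 to 0.96). None of its other 3 probesets passed the test. The 2 of these that were above the array median read 0.53 (adjusted p = 0.0467) and 0.57 (adjusted p = 0.0221), both under 1.5-fold, in Atf6a-/- animals, and 0.34 and 0.27 in wild-type animals (adjusted p = 0.25 and 0.332). The mean of all Clock probesets gave 0.40 in wild-type animals, which did not pass the fold limit.

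Npas2, the alternative partner of BMAL1, had no probeset above the array median on any of the 12 arrays. Its brightest probeset read 4.20, 4.12 and 4.08 in Atf6a-/- TM animals and 4.59, 4.37 and 4.34 in Atf6a-/- vehicle animals, a difference of -0.29 (adjusted p = 0.0443) that was under 1.5-fold. In wild-type animals it read 4.01, 4.18 and 4.21 with TM and 4.18, 4.30 and 4.08 with vehicle, a difference of -0.05 (adjusted p = 0.808). The other Npas2 probeset differed by -0.18 in Atf6a-/- animals (adjusted p = 0.189) and by 0.10 in wild-type animals (adjusted p = 0.587). Whether the Npas2 signal was above background was not tested.

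Among the repressors, Per1 rose in both genotypes, and its level under TM differed between them. It read 9.04, 8.39 and 8.60 in Atf6a-/- TM animals, against 7.83, 8.02 and 7.78 in Atf6a-/- vehicle animals. It read 9.86, 9.79 and 10.11 in wild-type TM animals, against 7.62, 8.10 and 8.08 in wild-type vehicle animals. The 3 wild-type TM animals were the highest of all 12, the 3 Atf6a-/- TM animals came next, and the vehicle animals of both genotypes overlapped at the bottom. Per1 rose by 0.80 (SE 0.17, 1.74-fold, adjusted p = 0.00397) in Atf6a-/- animals and by 1.99 (SE 0.17, 3.96-fold, adjusted p = 7.27e-06) in wild-type animals. Under TM it was lower in Atf6a-/- animals than in wild-type animals by 1.24 log2 units (difference -1.24, SE 0.17, 2.37-fold, adjusted p = 0.00135), while under vehicle the difference was -0.06 (95% interval -0.43 to 0.32, adjusted p = 1). The test of the difference between the responses gave -1.19 (SE 0.24, 95% interval -1.72 to -0.66, adjusted p = 0.0371). That last call was narrow: it was lost on leaving out any 1 of 10 arrays, that is, all but Atf6a-/- TM replicate 1 and wild-type vehicle replicate 2 (-1.26 to -1.03, adjusted p = 0.0572 to 0.108), and without the 4 arrays with Y-linked signal (-1.21, adjusted p = 0.0738). Per1 was the only clock gene called between genotypes under TM (1 lower, where 1.53% of all genes were lower, and 0 higher, where 2.89% were higher) and the only one called for the difference of responses (0.748% of all genes lower and 1.06% higher). By unadjusted p under 0.05, 2 of the 10 genes differed between genotypes under TM (Per1 and Nfil3), where 18.7% of all genes did. There the genotypes did not overlap for 1 clock gene that was higher in Atf6a-/- animals (Clock) and 1 that was lower (Per1), against 13.4% and 10.2% of all genes.

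**Figure D2:**
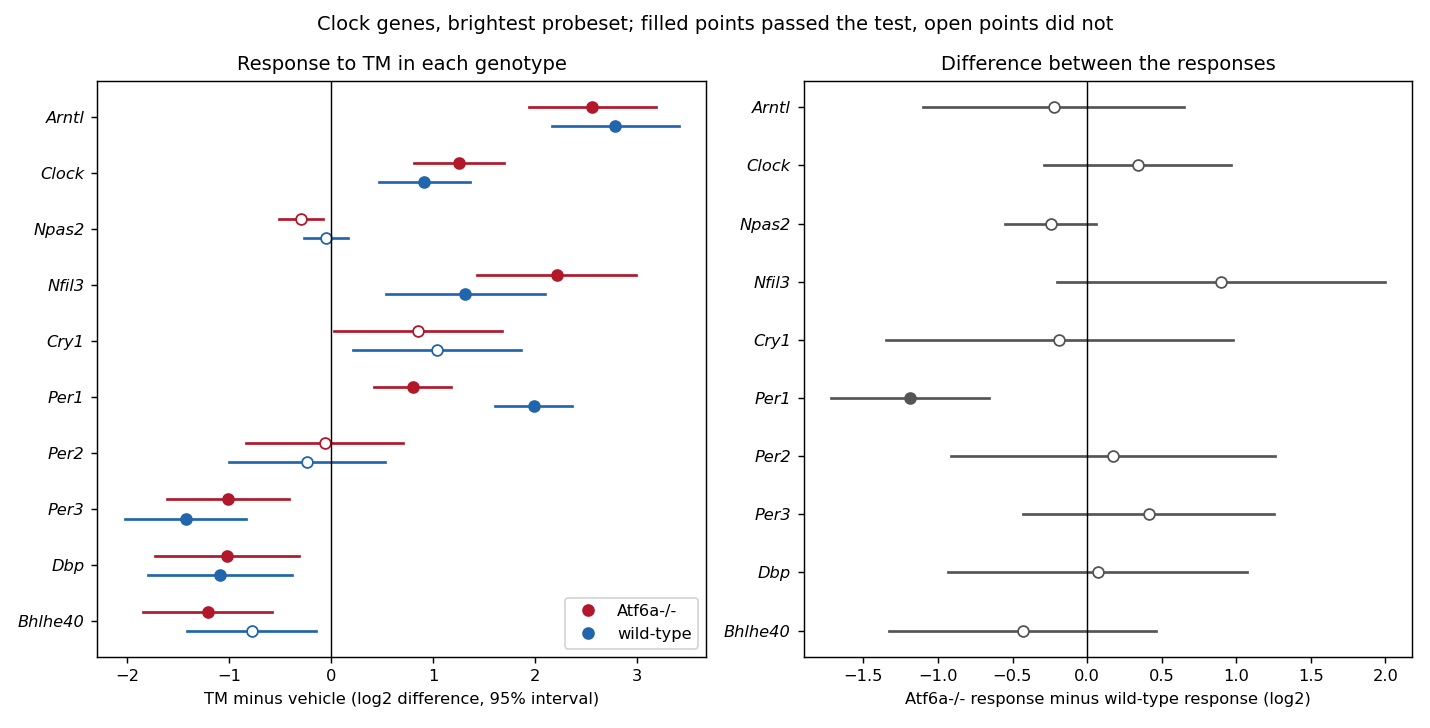
Left, log2 difference of TM minus vehicle for the 10 clock genes (rows) in Atf6a-/- animals (red, upper) and wild-type animals (blue, lower); right, the Atf6a-/- response minus the wild-type response. Points are limma estimates, bars are 95% intervals, and filled points passed the test. Per1 alone has a filled point on the right, at -1.19, and the Nfil3 interval there runs between -0.20 and 2.00.

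The other period genes did not follow Per1. Per2 read 7.04, 6.02 and 7.77 in Atf6a-/- TM animals, against 7.19, 6.74 and 7.10 in Atf6a-/- vehicle animals, and 6.85, 6.96 and 7.32 in wild-type TM animals, against 7.36, 7.69 and 6.78 in wild-type vehicle animals. The groups overlapped throughout, and the Atf6a-/- TM animals were widely spread. The differences were -0.06 (95% interval -0.83 to 0.71, adjusted p = 0.913) in Atf6a-/- animals and -0.24 (95% interval -1.01 to 0.53, adjusted p = 0.736) in wild-type animals. The intervals leave room for a change past 1.5-fold either way in Atf6a-/- animals, and for a fall of that size in wild-type animals. The other 2 Per2 probesets differed by -0.25 to 0.02 and did not pass.

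Per3 fell with TM. Its brightest probeset read 6.24, 5.94 and 6.34 in Atf6a-/- TM animals, against 7.39, 7.45 and 6.71 in Atf6a-/- vehicle animals, and 6.07, 5.79 and 5.88 in wild-type TM animals, against 7.96, 6.68 and 7.37 in wild-type vehicle animals. All 6 TM animals were below all 6 vehicle animals. Per3 fell by 1.01 (SE 0.27, 2.02-fold, adjusted p = 0.0155) in Atf6a-/- animals and by 1.42 (SE 0.27, 2.69-fold, adjusted p = 0.00274) in wild-type animals, and the responses differed by 0.41 (95% interval -0.43 to 1.26). The Atf6a-/- call was lost without Atf6a-/- TM replicate 2, Atf6a-/- vehicle replicate 1 or Atf6a-/- vehicle replicate 2 (-0.91 to -0.88, adjusted p = 0.0518 to 0.0673). Of the other 5 probesets, 3 also fell in Atf6a-/- animals, by 0.94 to 1.58, and 2 of these fell in wild-type animals, by 1.02 and 1.23, while the other read -1.28 there (adjusted p = 0.0623). The remaining 2 were below the array median on all 12 arrays and did not pass.

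Cry1, which closes the main loop with the period proteins, was higher in most TM animals but did not pass the test. It read 6.12, 6.42 and 6.79 in Atf6a-/- TM animals, against 5.27, 5.20 and 6.30 in Atf6a-/- vehicle animals, and 6.27, 6.71 and 6.53 in wild-type TM animals, against 5.15, 6.42 and 4.81 in wild-type vehicle animals. In each genotype 1 vehicle animal, the one with Y-linked signal, lay within the range of the TM animals and the other 2 lay well below it. The differences were 0.85 (SE 0.38, adjusted p = 0.115) in Atf6a-/- animals and 1.04 (SE 0.38, adjusted p = 0.0821) in wild-type animals. Without the 4 arrays with Y-linked signal, Cry1 passed in both (1.22, adjusted p = 0.00198, in Atf6a-/- animals and 1.64, adjusted p = 0.00048, in wild-type animals). Leaving out wild-type vehicle replicate 2 alone gave 0.85 (adjusted p = 0.0307) in Atf6a-/- animals and 1.52 (adjusted p = 0.00329) in wild-type animals, and leaving out Atf6a-/- vehicle replicate 3 alone gave 1.21 (adjusted p = 0.0343) in Atf6a-/- animals.

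Bhlhe40 (DEC1) competes with the activators for E-boxes. It read 9.02, 8.37 and 9.89 in Atf6a-/- TM animals, against 10.42, 10.28 and 10.22 in Atf6a-/- vehicle animals, and 9.35, 9.71 and 10.04 in wild-type TM animals, against 10.59, 10.29 and 10.55 in wild-type vehicle animals. Vehicle animals were tightly grouped and all above the TM animals, which were spread out. Bhlhe40 fell by 1.21 (SE 0.29, 2.31-fold, adjusted p = 0.00799) in Atf6a-/- animals, and the wild-type difference of -0.78 (SE 0.29, adjusted p = 0.0918) did not pass. The difference between the responses was -0.43 (95% interval -1.33 to 0.46, adjusted p = 0.779), so that the genotypes were not shown to differ. The wild-type difference passed without Atf6a-/- TM replicate 2 (adjusted p = 0.0253) or Atf6a-/- TM replicate 3 (adjusted p = 0.0138), arrays that enter it only through the shared estimate of spread. Under TM, Bhlhe40 read -0.61 in Atf6a-/- minus wild-type animals (adjusted p = 0.369), and -1.0 (adjusted p = 0.027) without Atf6a-/- TM replicate 3.

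The D-box factors moved in opposite directions. Dbp, an activator and a direct target of the BMAL1 pair, was the brightest of the clock genes' probesets, at 10.22, 10.59 and 10.87 in Atf6a-/- TM animals, against 11.73, 11.87 and 11.15 in Atf6a-/- vehicle animals. It read 11.23, 10.04 and 10.80 in wild-type TM animals, against 12.31, 11.20 and 11.84 in wild-type vehicle animals. The Atf6a-/- groups did not overlap, and the wild-type groups met at wild-type TM replicate 1 and wild-type vehicle replicate 2. Dbp fell by 1.02 (SE 0.33, 2.03-fold, adjusted p = 0.0341) in Atf6a-/- animals and by 1.09 (SE 0.33, 2.13-fold, adjusted p = 0.0346) in wild-type animals, and its second probeset fell by 1.02 (adjusted p = 0.0186) and by 1.11 (adjusted p = 0.0172). The Atf6a-/- call was lost without Atf6a-/- TM replicate 1 or 2 or Atf6a-/- vehicle replicate 1 or 2 (-1.03 to -0.85, adjusted p = 0.0641 to 0.121). The wild-type call was lost without wild-type TM replicate 2 or 3 or wild-type vehicle replicate 1 or 3 (-1.15 to -0.76, adjusted p = 0.0719 to 0.147).

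Nfil3 (E4BP4), the repressor at D-boxes, read 10.62, 10.51 and 9.73 in Atf6a-/- TM animals, against 7.77, 8.06 and 8.37 in Atf6a-/- vehicle animals. It read 9.84, 8.79 and 8.83 in wild-type TM animals, against 7.17, 8.51 and 7.81 in wild-type vehicle animals. TM and vehicle animals did not overlap in either genotype, by more than 1 log2 unit in Atf6a-/- animals and by a small gap in wild-type animals. Nfil3 rose by 2.21 (SE 0.36, 4.64-fold, adjusted p = 0.000547) in Atf6a-/- animals and by 1.32 (SE 0.36, 2.50-fold, adjusted p = 0.0217) in wild-type animals. The wild-type call was lost without wild-type TM replicate 1, wild-type vehicle replicate 1 or wild-type vehicle replicate 3 (0.98 to 1.31, adjusted p = 0.0584 to 0.0973). Under TM, Nfil3 was 1.13 log2 units apart in Atf6a-/- minus wild-type animals (SE 0.36, adjusted p = 0.117), and the difference between the responses was 0.90 (95% interval -0.20 to 2.00, adjusted p = 0.567); neither passed. The comparison under TM passed without wild-type TM replicate 1 (1.48, adjusted p = 0.0441) and without the 4 arrays with Y-linked signal (1.36, adjusted p = 0.0238).

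Under vehicle no clock gene differed between the genotypes by this test, and 0% of all genes were called in either direction. 1 of the 10 clock genes, Npas2, had an unadjusted p under 0.05, where 3.88% of all genes did (difference 0.25, Atf6a-/- higher, adjusted p = 1). The methods' t-test called none of the 10 there. Npas2 was also the 1 clock gene whose vehicle groups did not overlap, where 4.85% of all genes were higher and 3.68% lower in Atf6a-/- animals without overlap. Its other probeset, also below the array median throughout, was higher in Atf6a-/- vehicle animals by 0.34 without overlap (limma, unadjusted p = 0.00414). That difference did not pass after adjustment. The genotype comparisons and the TM comparisons share arrays, so their values stand side by side and are not independent of each other.

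**Figure D3:**
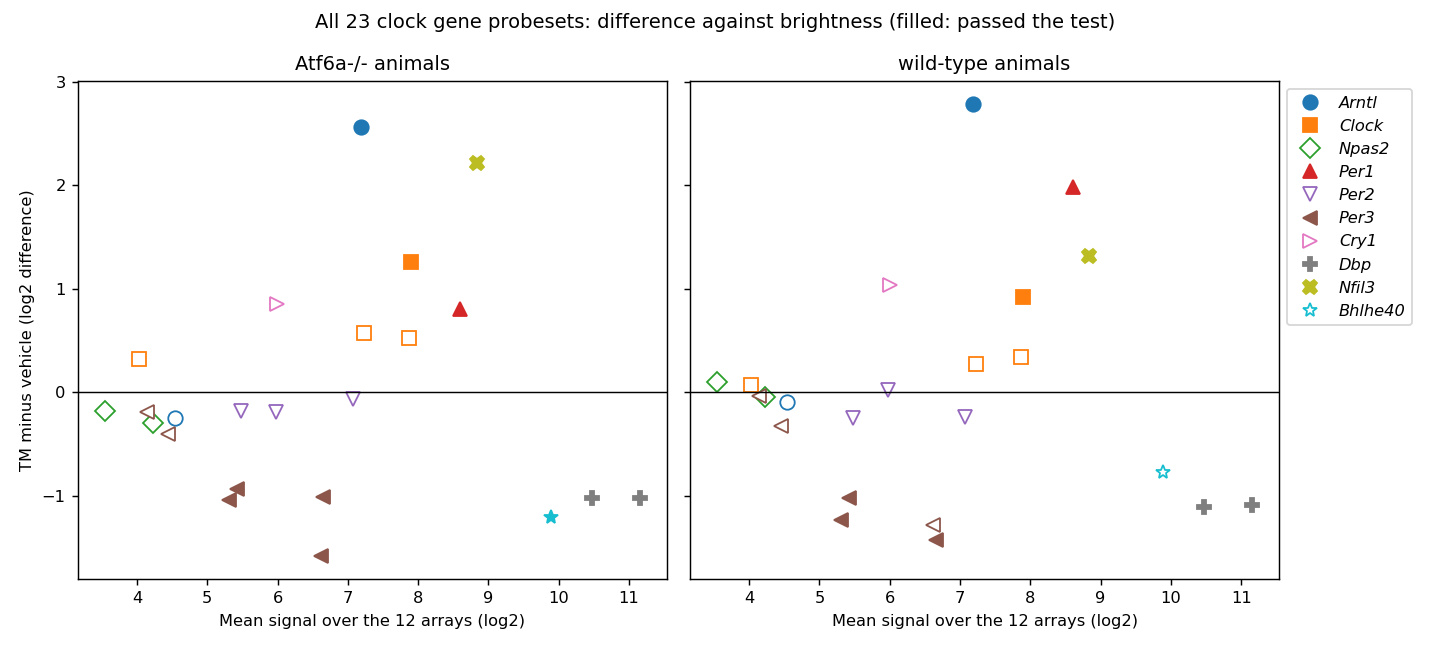
Log2 difference of TM minus vehicle (y axis) against mean signal over the 12 arrays (log2, x axis) for all 23 clock gene probesets, in Atf6a-/- animals (left) and wild-type animals (right). Colour and shape give the gene, and filled points passed the test. The 6 probesets that were below the array median on every array, of Arntl, Clock, Npas2 and Per3, lie between -0.40 and 0.32, while the brighter Per3 and Dbp probesets lie between -1.58 and -0.94.

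By probeset, 4 of the 23 rose and 7 fell in Atf6a-/- animals, where 10.6% of all probesets rose and 5.95% fell. In wild-type animals 4 rose and 5 fell, against 7.1% and 4.95% of all probesets. The probesets that fell belonged to Per3, Dbp and, in Atf6a-/- animals, Bhlhe40, so that several of them read the same transcript. 6 of the 23 were below the array median on every array, and none of these passed.

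The remaining genes of the clock were taken from a list of 26, of which 24 had a probeset of their own. In Atf6a-/- animals 4 of the 24 rose (Rora, Ciart, Gsk3b and Sirt1) and 2 fell (Hlf and Fbxl21), which is 16.7% and 8.33% of the list, against 13.1% and 8.21% of all genes. In wild-type animals 2 rose (Rora and Gsk3b) and 1 fell (Hlf), which is 8.33% and 4.17% of the list, against 8.92% and 6.9% of all genes. These shares were near those of all genes. The median difference of the 24 genes was 0.04 in Atf6a-/- animals and -0.06 in wild-type animals, against -0.10 and -0.06 over all genes.

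Rora, a nuclear receptor that activates Arntl through the ROR response element printed above, gave the clearest of these. It read 12.54, 12.97 and 12.50 in Atf6a-/- TM animals, against 10.18, 10.37 and 10.55 in Atf6a-/- vehicle animals, and 11.85, 11.79 and 11.56 in wild-type TM animals, against 10.23, 10.40 and 10.61 in wild-type vehicle animals. The Atf6a-/- TM animals were the highest, the wild-type TM animals came next, and the vehicle animals of both genotypes overlapped. Rora rose by 2.30 (SE 0.15, 4.93-fold, adjusted p = 7.78e-07) in Atf6a-/- animals and by 1.32 (SE 0.15, 2.50-fold, adjusted p = 5.94e-05) in wild-type animals. Under TM it was higher in Atf6a-/- than in wild-type animals by 0.94 (adjusted p = 0.00383), and the responses differed by 0.98 (SE 0.21, adjusted p = 0.0478), a direction opposite to that of Per1. The Rora difference of responses was lost on leaving out any 1 of 11 arrays, that is, all but wild-type vehicle replicate 1 (0.83 to 1.07, adjusted p = 0.0504 to 0.129), and without the 4 arrays with Y-linked signal (0.98, adjusted p = 0.0633). It was also lost with cyclic loess normalization (0.95, adjusted p = 0.0553) and with centring on Btf3 and Ppia (0.95, adjusted p = 0.0886).

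The REV-ERB genes, which repress through that element, did not pass. Nr1d1 (REV-ERBα) read 8.86, 9.05 and 8.46 in Atf6a-/- TM animals, against 7.95, 8.64 and 7.62 in Atf6a-/- vehicle animals, a difference of 0.72 (adjusted p = 0.207). In wild-type animals it read 8.08, 7.75 and 7.68 with TM and 8.64, 7.30 and 9.26 with vehicle, a difference of -0.56 (adjusted p = 0.409), with vehicle animals spread over nearly 2 log2 units. Nr1d2 (REV-ERBβ) differed by 0.41 in Atf6a-/- animals (adjusted p = 0.0384), under 1.5-fold, and by -0.10 in wild-type animals (adjusted p = 0.692). Cry2, the other cryptochrome gene, differed by 0.49 in Atf6a-/- animals (adjusted p = 0.00718), also under 1.5-fold, and by 0.06 in wild-type animals (adjusted p = 0.818).

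Of the activators at D-boxes other than Dbp, Hlf fell in both genotypes and Tef did not pass. Hlf read 7.19, 6.91 and 7.14 in Atf6a-/- TM animals, against 8.44, 8.45 and 8.71 in Atf6a-/- vehicle animals, a fall by 1.45 (adjusted p = 2.98e-05). It read 7.17, 7.08 and 7.45 in wild-type TM animals, against 8.66, 8.96 and 8.31 in wild-type vehicle animals, a fall by 1.41 (adjusted p = 5.56e-05). The TM and vehicle animals were well apart. Tef differed by -0.21 in Atf6a-/- animals (adjusted p = 0.139) and by -0.58 in wild-type animals (adjusted p = 0.00113), just under 1.5-fold. Ciart, a repressor of the BMAL1 pair, rose by 0.82 in Atf6a-/- animals (adjusted p = 0.00508) and read 0.38 in wild-type animals (adjusted p = 0.197). Its responses differed by 0.44 (adjusted p = 0.593), so that the genotypes were not shown to differ. Sirt1, a deacetylase that acts on clock proteins, rose by 0.95 in Atf6a-/- animals (adjusted p = 0.00101) and read -0.07 in wild-type animals (adjusted p = 0.844). The difference between the Sirt1 responses, 1.02, did not pass (adjusted p = 0.0636). Under TM, Sirt1 was higher in Atf6a-/- than in wild-type animals by 0.83 (adjusted p = 0.015), a call lost without Atf6a-/- TM replicate 1, Atf6a-/- TM replicate 3 or wild-type TM replicate 2 (0.65 to 0.81, adjusted p = 0.0582 to 0.067). The Ciart call was lost without Atf6a-/- vehicle replicate 3 (0.58, under 1.5-fold). Gsk3b, a kinase that phosphorylates clock proteins, rose by 0.61 in Atf6a-/- animals (adjusted p = 0.0174) and by 0.69 in wild-type animals (adjusted p = 0.0121). The Gsk3b calls were lost without Atf6a-/- TM replicate 3, Atf6a-/- vehicle replicate 1 or Atf6a-/- vehicle replicate 2 (0.39 to 0.60) and without wild-type TM replicate 2 (0.64, adjusted p = 0.0512). The mean of all Gsk3b probesets gave 0.21 in Atf6a-/- animals (adjusted p = 0.17) and 0.49 in wild-type animals, and neither passed. The Atf6a-/- Gsk3b call was also lost with quantile normalization (0.43, adjusted p = 0.0708), with cyclic loess normalization (0.54) and with centring on Btf3 and Ppia (0.54). Fbxl21, an F-box protein that acts on cryptochromes, fell by 0.62 in Atf6a-/- animals (adjusted p = 0.00897), was under 1.5-fold in wild-type animals (-0.49, adjusted p = 0.0408), and lost its call without Atf6a-/- TM replicate 3 or Atf6a-/- vehicle replicate 3 (-0.58 to -0.52). The Fbxl21 call was lost as well with quantile normalization (-0.53) and cyclic loess normalization (-0.49), both under 1.5-fold. Bhlhe41, the close relative of Bhlhe40, differed by 0.06 in Atf6a-/- animals and -0.02 in wild-type animals, and neither passed.

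Several genes that the liver clock is known to drive fell with TM. Of 20 listed output genes 17 were measured, and 7 fell (41.2% of them) and 2 rose (11.8%) in each genotype. Of all genes, 8.21% fell and 13.1% rose in Atf6a-/- animals, and 6.9% fell and 8.92% rose in wild-type animals. The list was chosen with earlier results of these data known, so these shares are not independent support. The share of all genes also includes dim ones: with only the 22518 brighter probesets tested, 2572 fell in Atf6a-/- animals and 2179 in wild-type animals. The median difference of the 17 was -0.50 in Atf6a-/- animals and -0.77 in wild-type animals, against -0.10 and -0.06 over all genes. Wee1, a mitotic kinase under E-box control, fell by 1.45 (adjusted p = 0.000253) in Atf6a-/- animals and by 1.54 (adjusted p = 0.000245) in wild-type animals. Usp2, a rhythmic deubiquitinase, read 8.24, 8.27 and 8.75 in Atf6a-/- TM animals, against 10.12, 10.54 and 10.70 in Atf6a-/- vehicle animals, and fell by 2.03 (adjusted p = 0.000242). In wild-type animals Usp2 read 8.89, 8.14 and 9.46 with TM and 10.07, 10.59 and 9.86 with vehicle, and fell by 1.34 (adjusted p = 0.00642). In neither genotype did the Usp2 groups overlap. Nampt, which makes a precursor of NAD, fell by 0.82 (adjusted p = 0.00702) in Atf6a-/- animals and by 0.85 (adjusted p = 0.00773) in wild-type animals. The nuclear receptor gene Nr1i3 fell by 1.43 (adjusted p = 0.00148) in Atf6a-/- animals and by 1.84 (adjusted p = 0.000365) in wild-type animals. Gys2, the glycogen synthase of liver, fell by 1.04 (adjusted p = 0.001) in Atf6a-/- animals and by 1.67 (adjusted p = 4.46e-05) in wild-type animals. Tspan4 fell in both genotypes, Alas1, the first enzyme of heme synthesis, fell in Atf6a-/- animals by 1.73 (adjusted p = 0.00472) and read -0.77 in wild-type animals (adjusted p = 0.209), and Lonrf3 fell in wild-type animals by 1.44 (adjusted p = 0.00185) and read -0.50 in Atf6a-/- animals (adjusted p = 0.182). Cdkn1a, the cell cycle inhibitor p21 and also a stress gene, rose by 4.15 (adjusted p = 1.09e-06) in Atf6a-/- animals and by 3.82 (adjusted p = 2.19e-06) in wild-type animals, and Leo1 rose by 1.04 in Atf6a-/- animals and by 0.77 in wild-type animals. The wild-type Leo1 call was lost without any 1 of 5 wild-type arrays, all but vehicle replicate 2 (0.50 to 0.81), and that of Nampt without wild-type vehicle replicate 2 (-0.58, just under 1.5-fold). Under TM, Lonrf3 was higher in Atf6a-/- than in wild-type animals by 1.04 (adjusted p = 0.0441), a call lost on leaving out any 1 of 7 arrays: Atf6a-/- TM replicates 1 and 3, Atf6a-/- vehicle replicates 1 and 3, wild-type TM replicates 1 and 2, and wild-type vehicle replicate 1 (0.89 to 1.04, adjusted p = 0.0534 to 0.152). The Lonrf3 call was also lost without the 4 arrays with Y-linked signal (1.03, adjusted p = 0.0525). No other output gene differed between genotypes under TM by this test. For the difference of responses 0 output genes were called (Alas1 -0.95, adjusted p = 0.569).

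**Figure D4:**
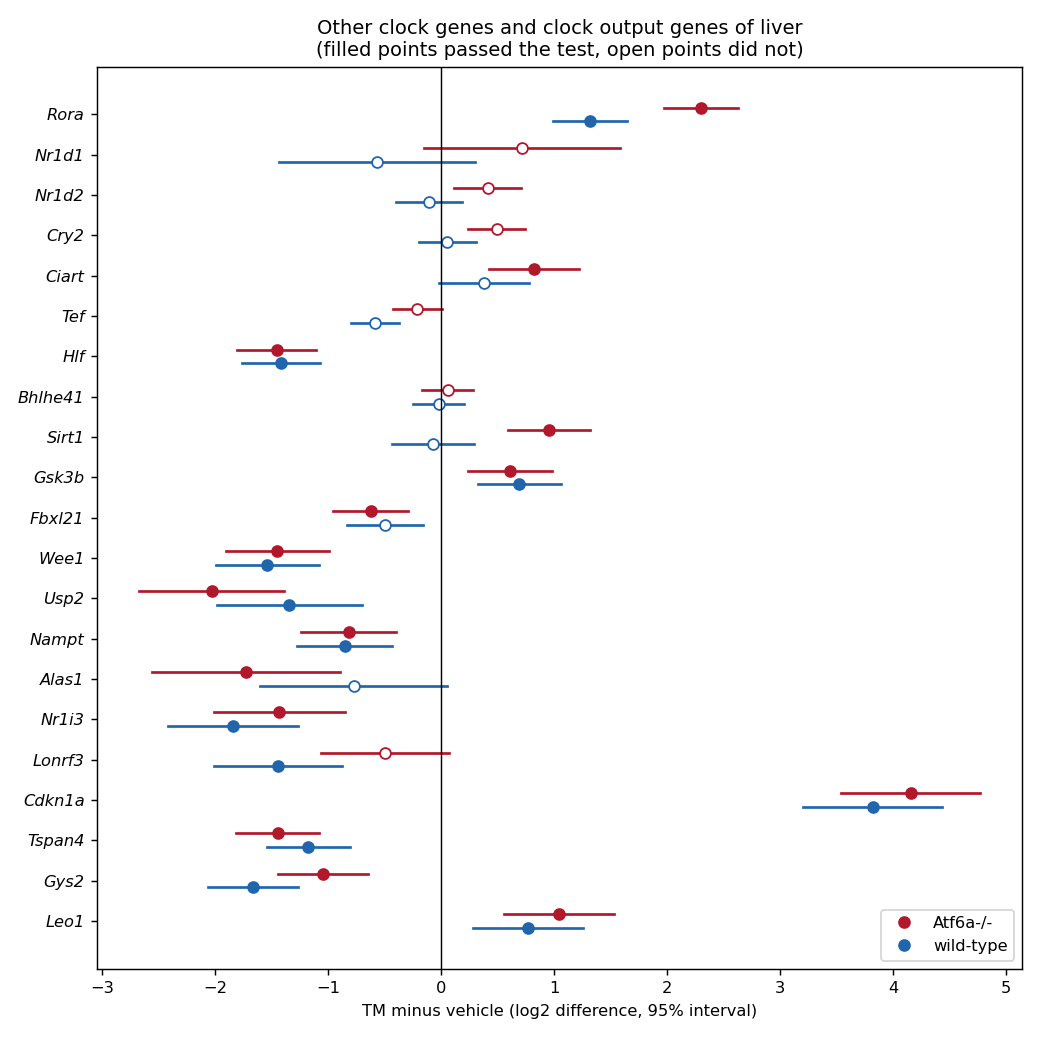
Log2 difference of TM minus vehicle (x axis) for other clock genes and clock output genes of liver (rows, those called in either genotype and the loop genes) in Atf6a-/- animals (red, upper) and wild-type animals (blue, lower). Points are limma estimates, bars are 95% intervals, and filled points passed the test. Rora at 2.30 and 1.32, and Cdkn1a at 4.15 and 3.82, stand to the right, while Hlf, Wee1, Usp2 and Nr1i3 stand to the left in both genotypes.

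The genes with array patterns most like those of Per1, Arntl and Nfil3, the 3 clock genes with the largest limma statistics for TM, were sought among the other 18192 genes. Likeness was the root mean square of the differences over the 12 arrays, after each gene was centred on its own mean. For Per1 these were Phkg2 (0.21 log2 units), Esyt1 (0.23) and Wars (0.26), against a median of 0.89 over all genes. Phkg2 differed by 0.55 in Atf6a-/- animals and by 2.16 in wild-type animals, where Per1 differed by 0.80 and 1.99. For Arntl they were Lgalsl (0.32), Dnajb9 (0.37) and Ngdn (0.38), against a median of 1.43. Dnajb9, an ER co-chaperone, differed by 2.37 in Atf6a-/- animals and 2.31 in wild-type animals. For Nfil3 they were C9orf72 (0.29), Pelo (0.32) and Hinfp (0.33), against a median of 1.11. C9orf72 differed by 2.06 in Atf6a-/- animals and by 1.12 in wild-type animals.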

How the data were processed

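Livers of 12 mice were profiled on 1-colour Affymetrix arrays. The deposited log2 values were made by the authors with RMA through the affy package, as the labels name it beside limma. RMA corrects background, normalizes all arrays together by quantiles and summarises each probeset. No version is given in the sources used here. RMA narrows differences at low signal, and depth has no counterpart on arrays, where 3 animals a group limit the precision. No further scaling or filter was applied.

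Of 45101 probesets, 64 controls were left out. The annotation named 1 gene for 34945 of the rest, several for 932 and none for 9160. A gene was read from its brightest probeset. 1 group-means model over the 12 arrays was fitted with limma 3.58.1 (R 4.3.3, lmFit and eBayes, 8 residual and 4.25 prior degrees of freedom), with Benjamini-Hochberg adjustment over 45037 probesets in each contrast. Calls needed an adjusted p under 0.05 and over 1.5-fold. An exact permutation test of 3 against 3 cannot go below p = 0.1 and was not used. The fit was tested on simulated data. Replicates are separate animals by the labels.

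The members and the lists of other clock, output and marker genes were chosen with earlier results of these data known. All member probesets are reported. Listed genes are named where called in any contrast or where they belong to the loops. Neighbours are the 3 closest genes for the 3 members with the largest limma statistic. Alternatives were other eBayes, weighting, scaling, probeset and fold settings, the t-test that the methods name, a replicate block, and leaving out each array. The Ppia probeset used for scaling with Btf3 also names another gene. Values without the 4 arrays with Y-linked signal were chosen after the values were seen.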

Additional observations from a re-analysis of the deposited data

Results flagged for a closer look

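Per1 and Rora were marked for a closer look because the test of the interaction called a difference between the genotypes in their responses to TM. Both calls were narrow: that of Per1 held in 13 of 25 alternatives and that of Rora in 9 of 25. The Per1 response was smaller in Atf6a-/- than in wild-type animals (-1.19 log2 units, adjusted p = 0.0371, limma with Benjamini-Hochberg adjustment). The Rora response was larger in Atf6a-/- than in wild-type animals (0.98 log2 units, adjusted p = 0.0478). No group had enough arrays for a test of outlying samples.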

How the results depend on the processing

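For the 10 clock genes, 22 results were set against 28 alternatives, 609 comparisons in all, of which 543 kept their direction and their side of the threshold. 2 changed direction. Without probesets that can match several transcripts (_s_at, _x_at, _a_at), Arntl is read by its dim probeset alone and gave -0.25 (adjusted p = 0.225) in Atf6a-/- animals and -0.091 (adjusted p = 0.759) in wild-type animals.

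With the methods' t-test after Benjamini-Hochberg adjustment, 0 clock genes fell in Atf6a-/- animals, where 1322 of all 45037 probesets fell. In wild-type animals 2 rose (Arntl and Per1) and 0 fell, where 1375 and 775 of all probesets did. Under TM, 0 clock genes were lower in Atf6a-/- than in wild-type animals. This setting called 0 of all 45037 probesets there in either direction, so the loss is not particular to Per1. With trend and robust estimation, 1 gene fell in wild-type animals (Per3), and Dbp did not pass in either genotype (adjusted p = 0.0554 in Atf6a-/- and 0.0594 in wild-type animals). In wild-type animals, Cry1 and Bhlhe40 passed with array weights (adjusted p = 0.0293 and 0.0435) and with centring on Btf3 and Ppia (adjusted p = 0.0476 and 0.0341). Quantile and cyclic loess normalization ended the Lonrf3 call under TM (adjusted p = 0.0654 and 0.057). Under TM, Y-linked signal as a covariate and the removal of the 4 arrays each gave 1 gene higher in Atf6a-/- animals (Nfil3), against 0. Of all probesets, 1029 and 1274 were higher with these settings, against 865. Leaving out 1 array at a time, between 4 and 5 clock genes rose and 1 to 3 fell in Atf6a-/- animals, and 3 to 5 rose and 1 to 3 fell in wild-type animals. Of all 45037 probesets, 4242 to 5022 rose and 2378 to 2799 fell in Atf6a-/- animals. In wild-type animals 2734 to 3463 of them rose and 1790 to 2690 fell. Under TM, 0 to 1 clock genes were higher and 1 to 2 lower in Atf6a-/- animals, where 414 to 1037 of all probesets were higher and 410 to 571 lower. Under vehicle 0 clock genes were called in each direction, and for the difference of responses 0 to 1, where 95 to 397 of all probesets were higher and 165 to 300 lower.

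Deviations of same-numbered animals correlated by -0.48 to 0.39 (median -0.08, over 0.1 in 6 of 18 pairs). Those of animals with other numbers correlated by -0.52 to 0.61 (median 0.05, over 0.1 in 14 of 36 pairs). The arrays with Y-linked signal do not carry the same number in every group, so this check cannot decide whether the numbers pair the arrays. With the animal number as a replicate block, 1 of the 15 calls was lost, that of the Per1 response difference (-1.19, adjusted p = 0.0731), which left 0 clock genes there, as did the removal of the 4 arrays (0). The block also ended the Rora difference of responses (adjusted p = 0.0667) and the Lonrf3 difference under TM (adjusted p = 0.0783). The cause of these changes was not tested. With 3 animals a group, the intervals of Per2 were wide (-0.83 to 0.71 in Atf6a-/- animals and -1.01 to 0.53 in wild-type animals). The smallest detectable difference was not computed. Of the member probesets, 6 were below the array median throughout.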
